A study of Homo sapiens with 6 samples.

Results

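CLU, the gene of clusterin, is described here in the ovarian cancer line NIH:OVCAR-3 at a low and at a high density of cells. It is 1 of 770 genes measured, and it was chosen because its level was the highest among the genes that differed strongly between the densities. Its level, rank and share, and its difference between the densities, are therefore given as a description with no test. NIH:OVCAR-3 is an established human line of the high-grade serous type. The cells of both groups were unmodified and untreated, were kept for 1 week in RPMI medium with 20% fetal bovine serum and differed in the number of cells plated. The nCounter PanCancer Progression Panel, which counts single RNA molecules by a fluorescent barcode, was read from 100 ng of RNA in 3 low density and 3 high density samples. Low and high density cells are also called sparse and crowded cells, and errors of group means are the SD of 3 samples unless named otherwise. A medium density named in the design was not analysed here.

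Clusterin, also called apolipoprotein J, is a secreted glycoprotein that binds unfolded proteins outside the cell and so acts as an extracellular chaperone. It also binds the terminal complement complex and limits its insertion into membranes, it circulates in part on lipoprotein particles, and its gene responds to many kinds of cell stress. The gene is expressed in many epithelia, and its protein has been studied in ovarian cancer in relation to cell survival under chemotherapy.

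The values are normalized counts, that is, barcode counts scaled in each sample to 30 reference genes of the panel. The counts recovered from them totaled 658422, 696309 and 688515 barcodes in the low density samples and 683341, 655870 and 554857 in the high density samples. The mean of the 8 negative control probes lay between 6 and 10 counts. Over 6 pairs of samples of the same density the counts differed by a chi-square of 1.38 to 2.03 per gene, so no pair agreed within sampling noise, against 72.4 to 85.9 over 9 pairs of opposite density. The labels do not say whether the samples of a group came from separate cultures, so the spread behind each p-value is that between these samples alone and may be technical. All 7 carcinoma epithelium markers on the panel passed the floor of 20 normalized counts, against 1 of 9 fibroblast, 1 of 5 endothelial and 1 of 5 leukocyte markers. The summed level of the epithelial markers was 18264 to 18920 in sparse and 24319 to 24914 in crowded cells, so it was lower at low density, as CLU was. The summed level of the fibroblast markers was 98.1 to 118 in sparse and 87.7 to 105 in crowded cells, that of the endothelial markers 55.4 to 67.0 in sparse and 70.1 to 89.0 in crowded cells, and that of the leukocyte markers 62.2 to 88.3 in sparse and 78.0 to 111 in crowded cells. The sums of the last 3 lists lay far below CLU alone. The part of any of the 4 lists in the level of CLU was not tested.

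CLU was the most abundant transcript of the panel in crowded cells and the sixth most abundant in sparse cells. Its level was 16107, 14854 and 15138 normalized counts in the low density samples, against 65317, 64647 and 63153 in the high density samples. The groups did not overlap, and the lowest high density value was 63153 against a highest low density value of 16107. The means were 15366 ± 657 normalized counts in sparse cells and 64372 ± 1108 in crowded cells (SD, n = 3 each). On the log2 scale the difference, low minus high density, was -2.07 (SE 0.03), and the mean at high density was 4.19 times that at low density. In samples of whole cultures, fewer cells with much CLU and less CLU RNA per cell cannot be told apart.

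**Figure D1:**
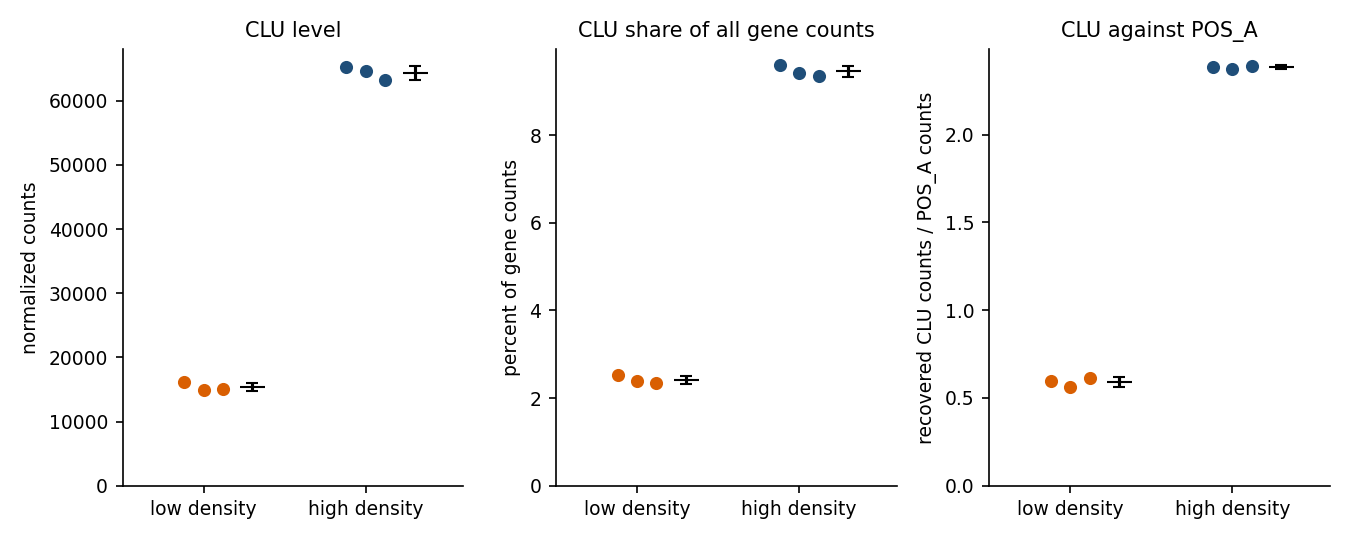
CLU in each sample as its level in normalized counts (left), its percentage of all gene counts (middle) and its recovered count relative to that of the spiked-in control POS_A (right). Points are the 3 samples of each density and bars are mean ± SD; on each of the 3 scales the low density points lie well below the high density points.

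The recovered counts of CLU were 16581, 16634 and 16116 barcodes in sparse cells and 65564, 61778 and 51810 in crowded cells. With so many barcodes, counting alone would give a coefficient of variation of 0.780% in sparse and 0.411% in crowded cells. The coefficient of variation of the recovered counts was 1.73% in sparse and 11.9% in crowded cells, differences in total counts included. That of the normalized counts, used below, was 4.27% in sparse and 1.72% in crowded cells. It includes any error of the scaling factors. On both scales replicates differed by more than counting error at both densities. Among the 145 other genes with a mean of at least 1000 normalized counts, the median coefficient of variation was 2.84% in sparse and 2.93% in crowded cells. At low density 124 of the 145 varied less than CLU, and at high density 29 did.

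CLU took 2.52% of all gene counts in low density replicate 1 (95% Wilson interval, 2.48% to 2.56%), 2.39% in replicate 2 (2.35% to 2.43%) and 2.34% in replicate 3 (2.31% to 2.38%). In the high density samples it took 9.59% (9.53% to 9.66%), 9.42% (9.35% to 9.49%) and 9.34% (9.26% to 9.41%). These intervals cover counting error only. The mean share was 2.42% ± 0.0918 at low density and 9.45% ± 0.131 at high density. Thus 1 barcode in 39.7 to 42.7 belonged to CLU in sparse cells and 1 in 10.4 to 10.7 in crowded cells. In each low density sample CLU exceeded the sum of the 425 to 433 least abundant genes, and in each high density sample that of the 574 to 577 least abundant ones. Many of these lay near background, since of the 770 genes only 508 besides CLU reached a mean of 20 normalized counts.

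The rank of CLU was 6 in every low density sample and 1 in every high density sample. At low density ENO1, a glycolytic enzyme, stood just above it, with 16741, 16160 and 16011 normalized counts. LDHA, lactate dehydrogenase A, stood just below it, and CLU was 1.16, 1.11 and 1.11 times as high. Within each low density sample CLU was below ENO1, at 0.919 to 0.962 times its level, although the ranges of both genes over the 3 samples overlapped. At high density the next gene was RPS27A, which encodes ubiquitin fused to a ribosomal protein. CLU was 1.24, 1.23 and 1.19 times as high as RPS27A in the high density samples, and the values of the 2 genes did not overlap. In the low density samples it was 0.363, 0.346 and 0.338 times as high. Probes differ in how well they capture their target, so these ranks order counts and not molecules.

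The panel also reads 6 synthetic RNAs spiked in at falling amounts, which do not depend on the cells. POS_A, the most abundant of them, had 27790, 29595 and 26270 counts in sparse cells and 27454, 26036 and 21655 in crowded cells. The recovered CLU count was 0.597, 0.562 and 0.613 times that of POS_A in the low density samples, against 2.39, 2.37 and 2.39 times in the high density samples. CLU thus stood below the brightest control in sparse cells and above it in crowded cells, outside the range the controls cover. Inside that range the step from POS_A to POS_B was 2.82 to 2.92 in sparse cells and 2.76 to 2.79 in crowded cells. The next step, to POS_C, was 3.57 to 3.72 in sparse and 3.64 to 3.71 in crowded cells. That from POS_C to POS_D was 4.61 to 5.06 in sparse and 4.66 to 4.94 in crowded cells. The steps were thus smaller toward the brightest control. The groups overlapped in the steps to POS_C and to POS_D. They did not overlap in that from POS_A to POS_B, which was smaller in all 3 high density samples. Whether counts are proportional to amount near or above POS_A was not tested, so the difference of CLU is one of counts.

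The other transcripts of highest level differed far less between the densities. Of the 10 genes with the highest mean count, 5 encode enzymes of glycolysis (ALDOA, ENO1, LDHA, PKM and PGK1). RPS27A had 44410, 42970 and 44820 normalized counts at low density, against 52500, 52636 and 53092 at high density, a log2 difference of -0.26 ± 0.03 (SE). ANXA2P2, a pseudogene of annexin A2 whose probe may also bind the parent transcript, had 33043, 31928 and 33680 at low density, against 23173, 23622 and 22750 at high density, a difference of 0.50 ± 0.03. Neither pair of groups overlapped. CD24, a surface glycoprotein, averaged 21110 ± 364 normalized counts in sparse cells and 23982 ± 295 in crowded cells, a log2 difference of -0.18. SKP1, a subunit of a ubiquitin ligase, differed by 0.12. The 5 glycolytic genes differed by between -0.21 and 0.08, and ALDOA and ENO1 did not pass the test (adjusted p = 0.298 and 0.188, limma). The call of PKM (0.08, adjusted p = 0.0164, limma) was lost without low density replicate 3 (0.07, adjusted p = 0.0974) and without high density replicate 3 (0.07, adjusted p = 0.0926). The largest absolute log2 difference among the 9 was 0.50.

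**Figure D2:**
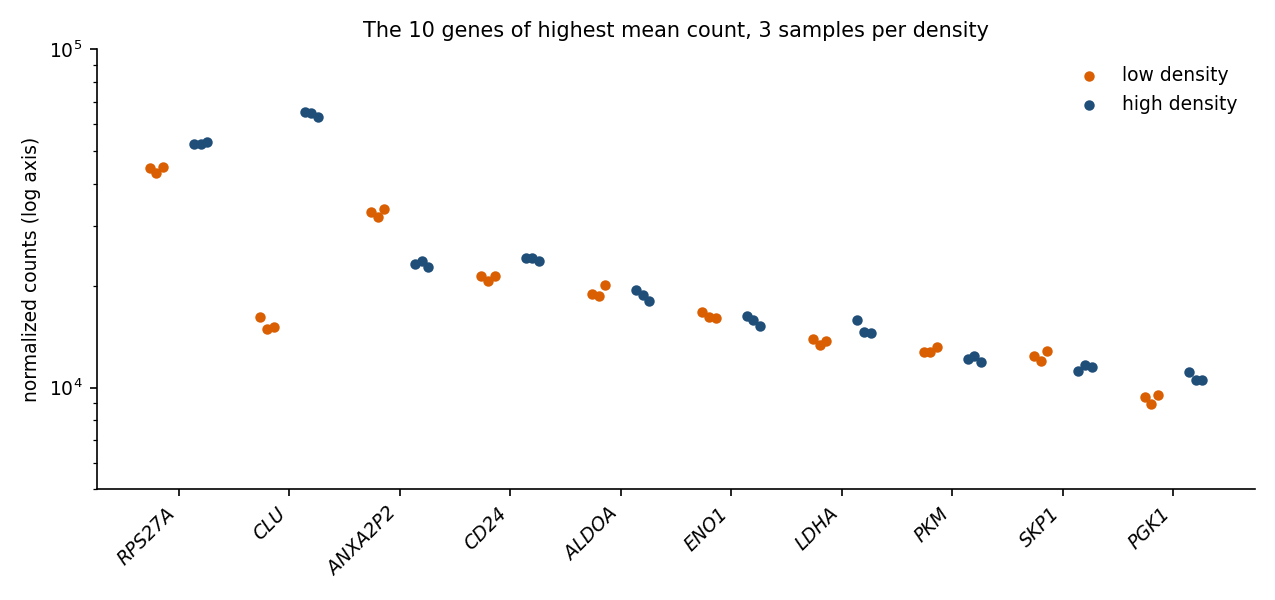
Normalized counts (log axis) of the 10 genes of highest mean level, with the 3 low density samples of each gene to the left of its 3 high density samples. CLU is the only one of the 10 whose rank differs by more than 2, at rank 6 in the low density and rank 1 in the high density samples.

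For a view of where CLU lies among all genes, the 480 genes outside the reference set whose mean reached 20 normalized counts were fitted with limma, on log2(value + 1), which understates the change of weakly expressed genes. At a Benjamini-Hochberg adjusted p of 0.05 over the 480, 318 genes (66.2%) passed, with 186 (38.8%) higher and 132 (27.5%) lower at low density. CLU was part of that fit, but its own call is not used, and without it 131 genes were lower. Limma pools the spread of the samples over genes, so the size of a very small adjusted p rests largely on that pooling. Of the 7 epithelial markers 6 were lower and none was higher, with 5 lower when CLU was in the totals and 4 lower on the positive controls. Of the 141 tested genes with a mean of at least 1000 normalized counts, 34 had an absolute log2 difference above 0.5 and 8 had one above 1, and the median was 0.24. The 8 included CLU, PTTG1, ID1, C3, BTG1, LGALS1 and BAG2. The next most abundant of them was PTTG1, which encodes securin, with 7410 ± 280 normalized counts in sparse cells and 2741 ± 85.4 in crowded cells. Its mean over the 6 samples was 5076 normalized counts.

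**Figure D3:**
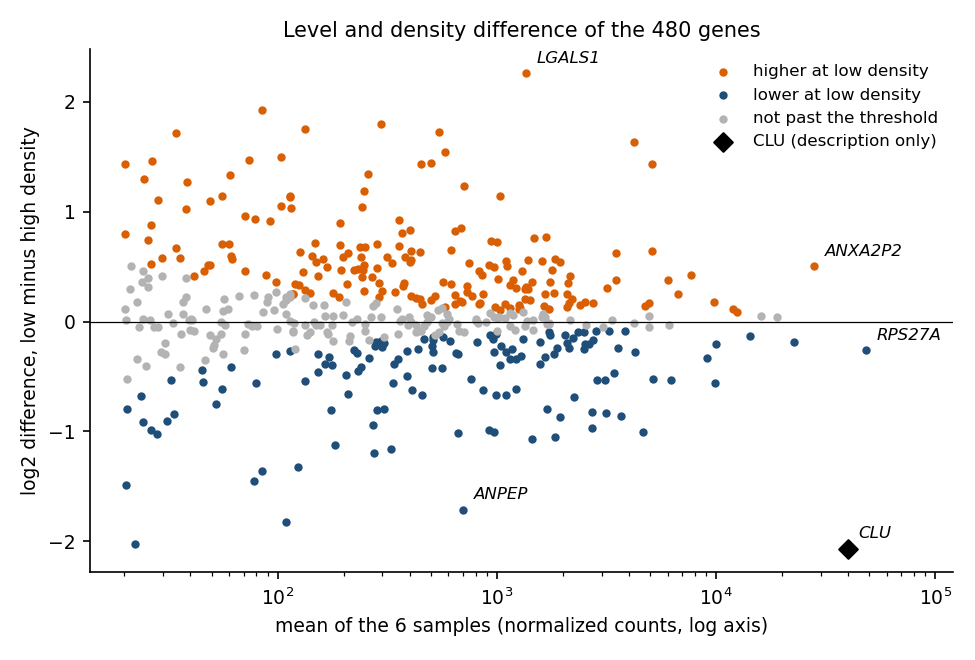
Log2 difference (low minus high density) against the mean of the 6 samples in normalized counts (log axis) for the 480 genes, colored by the limma call; CLU is drawn in black, as a description without a call. CLU, at -2.07, stands alone at the lower right, while RPS27A and ANXA2P2, of similar level, lie at -0.26 and 0.50.

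Against nearly every other gene, CLU was lower at low density. The ratio of CLU to another gene in the same sample does not depend on how samples are scaled. It was lower in all 3 low density samples than in any high density sample for 505 of the 508 other genes with a mean of at least 20 normalized counts, reference genes included. The 3 exceptions were INHBE, NRP1 and PIK3CG, and PIK3CG lay under the negative control limit at low density. CLU was chosen for a strong difference, so a count close to all genes follows from that choice and is a description only. The levels themselves did not overlap between the densities for 317 of the 480 tested genes (66%). That share is one of levels and gives no background for the count of ratios.

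The difference of CLU made up a large part of the summed difference between the densities. The difference of CLU, low minus high density, was -49006 normalized counts, while that of ANXA2P2, the next largest, was 9702 and that of RPS27A was -8676. Over the 377 genes with lower means at low density the differences summed to -113833 counts, of which CLU gave 43.1%. Over the 393 genes with higher means they summed to 68728. Of the absolute differences summed over all 770 genes, CLU made up 26.8%. Of the squared distance between the 2 group means, CLU made up 88.1% on the scale of counts and 1.76% on the scale of log2(value + 1). A distance computed on counts was thus almost wholly one of CLU, and one computed on log2 values was not.

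The difference in the total of all 770 genes between the densities was, on the deposited scaling, nearly that of CLU alone. With CLU the totals averaged 636040 ± 12853 normalized counts in sparse cells and 681145 ± 5012 in crowded cells, a difference of -6.62% of the high density total. Without CLU they averaged 620674 ± 12575 in sparse cells and 616772 ± 4405 in crowded cells. The difference without CLU was 3901 counts, or 0.633% of the high density total, and the totals of 623478, 606933 and 631610 in sparse cells overlapped those of 615453, 621686 and 613178 in crowded cells. An exact two-sided permutation test over the samples (p = 0.6) cannot go below 0.1 with 3 against 3, so it does not show that these totals were alike. Scaled to the positive controls instead, the total at low density was higher, by 3.40% with CLU and by 11.4% without it. The direction of the difference with CLU was thus the reverse of that on the deposited scaling. Leaving CLU out moved the log2 difference of the totals by 0.108. Leaving out ANXA2P2 instead moved it by -0.0266 and leaving out RPS27A by 0.0127, the next largest shifts of any single gene.

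When samples are scaled to their total, that shift is passed on to every other gene. Scaled to totals that included CLU, 335 of the 480 genes (69.8%) passed the threshold in limma, 237 higher (49.4%) and 98 lower (20.4%) at low density. Scaled to totals without CLU, 318 (66.2%) passed, 184 higher (38.3%) and 134 lower (27.9%). The share of higher genes among those called was 70.7% with CLU in the totals, 57.9% without it and 58.5% on the reference genes. The median log2 difference over the 480 genes was 0.14 with CLU in the totals, 0.04 without it and 0.04 as deposited. With CLU in the totals, 53 genes counted as higher that did not pass without it, and 36 genes that counted as lower without it did not pass. In all, 89 of the 480 genes had another call, and none had opposite calls. Scaled to the positive controls, 316 (65.8%) passed, 240 higher (50%) and 76 lower (15.8%). Between the deposited scaling and totals without CLU 6 genes had another call, and between the deposited scaling and totals with CLU 85 did.

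**Figure D4:**
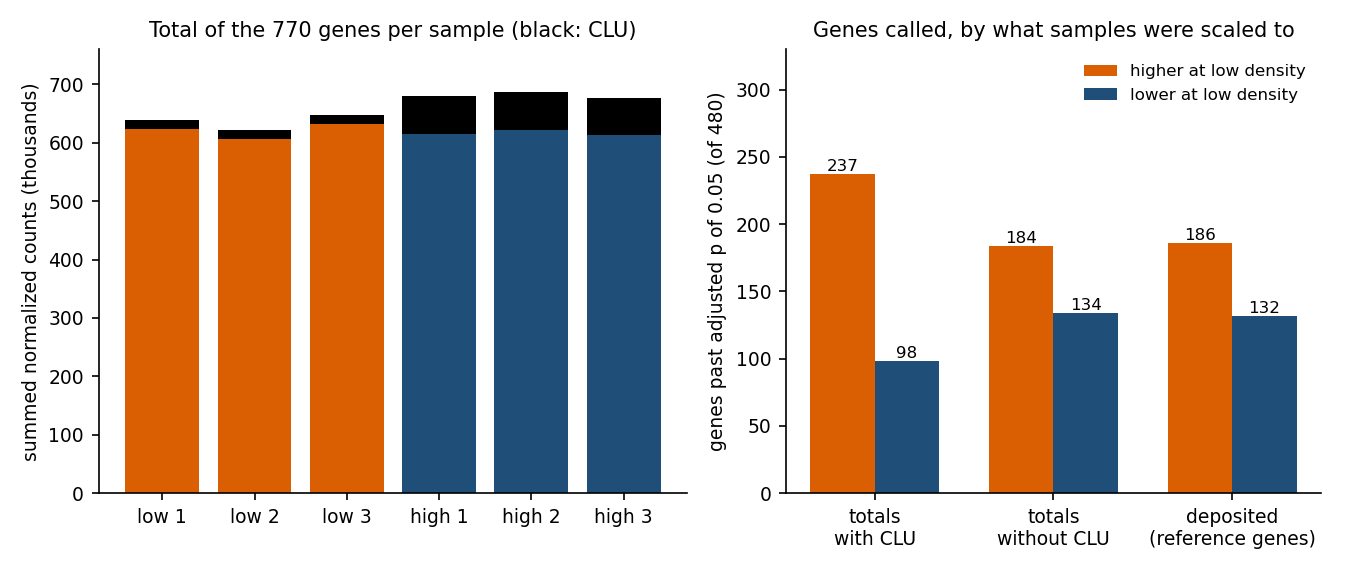
Left, total normalized counts of the 770 genes in each sample (axis in units of 1000), with CLU in black on top of all other genes; without CLU the 6 bars differ little. Right, number of the 480 genes past an adjusted p of 0.05 in limma, higher or lower at low density, with samples scaled to totals with CLU, to totals without CLU or to the reference genes as deposited.

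The most abundant genes whose call differed between totals with and without CLU were ALDOA, ENO1, LDHA, AKT2, NCL and ITGB1. With CLU in the totals, the glycolytic genes ALDOA and ENO1 were higher at low density, by 0.14 ± 0.02 (SE, adjusted p = 1.28e-06, limma) and by 0.15 ± 0.02 (adjusted p = 6.24e-07). Without CLU their differences were 0.03 (adjusted p = 0.290, limma) and 0.04 (adjusted p = 0.169). LDHA went the other way. It had 13898, 13387 and 13690 normalized counts at low density, against 15815, 14563 and 14458 at high density, with no overlap. Its difference was -0.14 ± 0.03 without CLU in the totals (adjusted p = 7.06e-06, limma) and -0.03 ± 0.03 with CLU in them (adjusted p = 0.301). For the kinase AKT2 the difference was 0.07 (adjusted p = 0.0246, limma) with CLU and -0.04 (adjusted p = 0.159) without it. For NCL, which encodes nucleolin, it was 0.15 (adjusted p = 1.78e-05, limma) with CLU and 0.04 (adjusted p = 0.250) without it, and as deposited NCL passed only when low density replicate 2 was left out (0.09, adjusted p = 0.0215). For ITGB1, the integrin beta-1 chain, it was 0.09 (adjusted p = 0.00613, limma) with CLU and -0.02 (adjusted p = 0.616) without it. All 6 differences were small, and AKT2 and ITGB1 changed sign with the gene left out.

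Quantile normalization, which gives each gene the value that belongs to its rank, was changed by CLU in another way. Because CLU took the first rank at high density, RPS27A stood at rank 1 in the low density samples and at rank 2 in the high density samples. Its log2 difference was 0.35 after quantile normalization, where the values follow from the ranks and no p is given, and -0.26 as deposited (adjusted p = 2.57e-15, limma). CD24 kept rank 3 in every sample, and its difference of -0.18 was 0.00 after quantile normalization. The difference of CLU itself was -1.77 on that scale.

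Genes whose course over the 6 samples was most like that of CLU were sought among the 480 by the root mean square distance of log2 values, each gene centered on its own mean. They were chosen by these values, so their differences are given without a test. The closest was ANPEP, which encodes the membrane peptidase aminopeptidase N, at a distance of 0.19, where the median over the 479 other genes was 1.06. ANPEP had 314, 313 and 356 normalized counts at low density, against 1069, 1100 and 1057 at high density. Its groups did not overlap, as for CLU, though its mean level over the samples was only 701 normalized counts. Next came INHBE, a subunit of the inhibin and activin family, with 38.9, 59.8 and 45.1 normalized counts at low density, against 166, 163 and 180 at high density. It was followed by PIK3CG, TMPRSS2, PRR15L and ADM2, at distances of 0.26 to 0.41. TMPRSS2, a serine protease of the cell surface, averaged 41.5 in sparse and 115 in crowded cells. ADM2, a peptide hormone of the calcitonin family, averaged 70.9 in sparse and 176 in crowded cells. The values of PIK3CG at low density, 5.83, 9.82 and 9.39 normalized counts, lay under the negative control limit (mean plus 2 SD) of 12.3 to 17.3, so its distance to CLU rests on background at that density.

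The mirror image of CLU was carried most closely by LGALS1, the gene of the lectin galectin-1, at a distance of 0.12 (median over all 479 genes, 1.01). LGALS1 had 2204, 2213 and 2330 normalized counts at low density, against 445, 499 and 460 at high density. At low density CLU was still several times as high as LGALS1, and at high density the gap was far wider. The transcription factor gene ETV4 followed, with means of 135 ± 18.2 in sparse and 34.7 ± 3.20 in crowded cells, and then PLEKHO1. PLAU, the urokinase plasminogen activator, averaged 462 in sparse and 132 in crowded cells. TIMP2, an inhibitor of matrix metalloproteinases, averaged 836 in sparse and 253 in crowded cells. ITGB3, the integrin beta-3 chain, had 13.9, 16.7 and 15.9 normalized counts at high density, close to the negative control limit of 12.5 to 18.1 there.

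**Figure D5:**
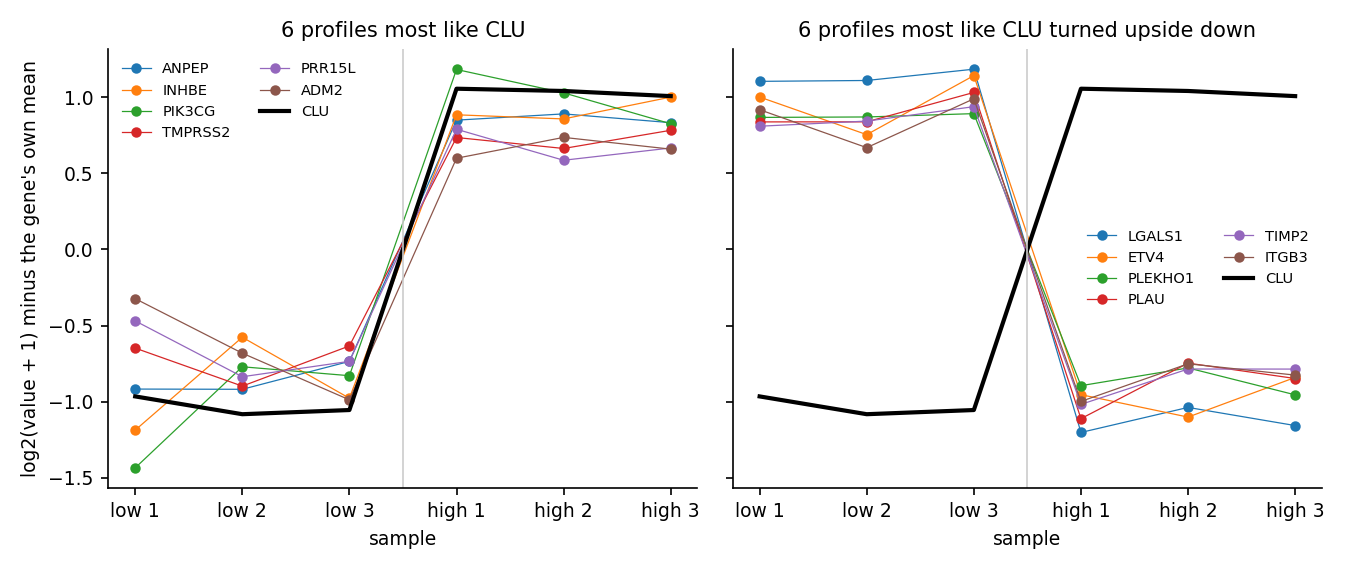
log2(value + 1) minus the mean of the gene over the 6 samples, for the 6 genes most like CLU (left) and the 6 most like its mirror image (right), with CLU in black. Lines only join the points of a gene; ANPEP, at a distance of 0.19, and LGALS1, at 0.12 from the mirror image, lie nearest.

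Clusterin shares its chaperone role with proteins of which few were on the panel. Of 23 chaperones of the stress response and the secretory pathway listed, 3 were measured and all 3 passed the test, 2 higher and 1 lower at low density, with 66.2% of all tested genes past it. Their median log2 difference was 0.13, against 0.04 over the 480 genes. SERPINH1, the collagen chaperone HSP47, had 7994, 7920 and 7913 normalized counts at low density, against 11595, 11976 and 11576 at high density, with no overlap, and was lower at low density by a log2 difference of -0.56 ± 0.03 (SE, adjusted p = 6.65e-50, limma). HSPB1, the small heat shock protein HSP27, averaged 2360 ± 52.7 in sparse cells and 1856 ± 119 in crowded cells and was higher by 0.35 ± 0.04 (adjusted p = 5.75e-16, limma). HSP90B1, the chaperone GRP94 of the endoplasmic reticulum, was higher by 0.13 ± 0.04 (adjusted p = 0.00303, limma), but with median-of-ratios scaling its difference was 0.06 (adjusted p = 0.119) and without low density replicate 3 it was 0.07 (adjusted p = 0.142).

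Of 22 genes of complement and of regulators of its terminal complex, 4 were on the panel and 3 passed the floor. All 3 passed the test, 1 higher and 2 lower at low density, where 66.2% of all tested genes passed. C3, the central component of the cascade, had 1193, 1191 and 1225 normalized counts at low density, against 2394, 2516 and 2576 at high density. The groups did not overlap, and C3 was lower at low density by a log2 difference of -1.05 ± 0.04 (SE, adjusted p = 1.37e-86, limma), on the same side as CLU. CD46, a membrane protein that limits complement on host cells, differed by -0.24 ± 0.04 (adjusted p = 4.19e-10, limma), a call lost when samples were scaled to the positive controls (-0.09, adjusted p = 0.126). C1S, a protease of the first complement component, averaged 51.4 in sparse and 25.1 in crowded cells and was higher by 1.03 ± 0.20 (adjusted p = 6.48e-07, limma). The fourth, C3AR1, a receptor for a fragment of C3, was below the floor.

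Receptors that bind or take up clusterin could not be compared, since of 12 listed only STAB1 and STAB2 were measured and both were below the floor. Of 10 apolipoproteins and amyloid partners, 3 were on the panel and APOE alone was tested. APOE, like clusterin a lipoprotein constituent, had 990, 981 and 976 normalized counts at low density, against 928, 993 and 940 at high density. The groups overlapped, and the difference of 0.04 did not pass the test (adjusted p = 0.452, limma). With CLU in the totals it was 0.14 (adjusted p = 0.00436, limma), so the call of APOE differed with CLU in the totals. Of 19 apoptosis genes, 3 were on the panel, and neither of the 2 tested passed, where 66.2% of all tested genes did. CASP8, an initiator caspase, differed by 0.05 (adjusted p = 0.534, limma), and by 0.15 (adjusted p = 0.0227) with CLU in the totals.

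Of 27 factors reported to regulate CLU transcription in other systems, 14 were measured and all were tested. At low density 4 were higher and 6 were lower, so that 10 of the 14 passed the test, near the 66.2% of all genes. With CLU in the totals 4 were higher and 5 lower, and without it 3 were higher and 6 lower. The balance turned on the positive controls, with 5 higher and 4 lower, and by median of ratios 3 were higher and 7 lower. SMAD3, a transducer of TGF-beta signals, had 517, 520 and 516 normalized counts at low density, against 277, 297 and 294 at high density, with no overlap and a log2 difference of 0.84 ± 0.07 (SE, adjusted p = 6.76e-29, limma). The ligand TGFB1 averaged 69.2 ± 9.76 in sparse cells and 41.8 ± 4.10 in crowded cells and was higher by 0.71 ± 0.16. CTNNB1, which encodes beta-catenin, was higher by 0.25. The receptor TGFBR2 was higher by 0.11 (adjusted p = 0.0443, limma), a call lost with CLU left out of the totals (0.10, adjusted p = 0.0562). It was also lost without any 1 of the 3 low density samples (adjusted p = 0.0632 to 0.134, limma) and without high density replicate 1 (0.05, adjusted p = 0.360). Among those lower at low density were the transcription factors JUN, at -0.53, MYC, at -0.50, and STAT3, at -0.32. SMAD4, the common partner of the SMAD proteins, differed by -0.29, a call lost on the positive controls (-0.14, adjusted p = 0.0680, limma). The ligand TGFB2 differed by -0.15 (adjusted p = 0.000451, limma), and by -0.05 (adjusted p = 0.224) with CLU in the totals. These are levels of RNA, and none of them measures activity at the CLU gene.

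Other secretory and surface products of ovarian and tubal epithelium were compared with CLU as well. Of 19 listed, 9 were measured and tested, and 1 was higher and 6 were lower at low density, where 27.5% of all genes were lower. The median log2 difference of the 9 was -0.66, against 0.04 over the 480 genes. The list was drawn up with earlier results of these data known, and it includes ANPEP, the gene nearest to CLU in course. These figures therefore describe the genes listed and are no test of such products as a class. Scaled to the positive controls, 1 was higher and 5 were lower, since CD24 no longer passed (-0.04, adjusted p = 0.539, limma). CHI3L1, a secreted chitinase-like protein, had 200.1, 209.8 and 196 normalized counts at low density, against 460.3, 487 and 412 at high density. Its groups did not overlap, with a log2 difference of -1.16 ± 0.08 (SE, adjusted p = 4.73e-41, limma). MUC1, a membrane mucin, differed by -0.94, and SERPINA1, the secreted inhibitor alpha-1-antitrypsin, by -0.66. ANPEP and CD24, described above, were also lower. SLPI and SPINT1 did not pass the test. SLPI averaged 4864 in sparse and 5017 in crowded cells, with overlapping groups and a log2 difference of -0.04 (adjusted p = 0.256, limma). SPINT1 differed by -0.08 (adjusted p = 0.103, limma). SPP1, which encodes the secreted protein osteopontin, was the only one higher at low density. It had 35.9, 37.5 and 31.9 normalized counts at low density against 12.9, 11.5 and 17.1 at high density. At high density it lay near the negative control limit of 12.5 to 18.1.

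Among the 20 genes nearest to CLU in the RefSeq gene order of chromosome 8, PTK2B, a focal adhesion kinase family member 6 genes away, was the only one on the panel. PTK2B had 281, 273 and 299 normalized counts at low density, against 233, 197 and 189 at high density. The groups did not overlap, and it was higher at low density by 0.47 ± 0.08 (SE, adjusted p = 1.86e-07, limma), opposite in direction to CLU.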

How the data were processed

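Barcode counts of 784 probes (770 genes, 8 negative and 6 positive controls) were read in 6 samples. The deposited gene values are a signal: counts that the authors multiplied by 1 factor per sample, which, as inferred from the values, set the geometric mean of 30 reference genes to 383.27 to 383.28. Values under 1 stood at 1, control probes were unscaled and no background was subtracted. The software was not given in the sources used here. Whole counts were recovered from the step of each sample (99.5% to 100% of values whole within 0.1), and edgeR 4.0.16 on them called 327 genes, 190 higher and 137 lower at low density. The factor of high density replicate 1 lay close to 1, but among its 435 genes of at least 50 counts 100% were whole with that factor and 15.9% with a factor of 1.

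Genes with a mean of at least 20, reference genes excepted, were fitted with limma 3.58.1 in R 4.3.3 (mean trend, no replicate block, two-sided, log2(value + 1), Benjamini-Hochberg over 480 genes, threshold 0.05), as deposited and scaled to totals with and without CLU. Other figures used Python 3.11.15. RefSeq names of GRCh38.p14 served for symbols (755 current, 15 older) and gene order only.

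CLU and the gene lists were chosen with earlier results of these data known. Genes named were CLU, the 10 most abundant, the 6 most like and 6 most opposite in course, list members that passed (else the most abundant), the 6 most abundant whose call turned on CLU, and panel genes within 10 genes of CLU. PTTG1, ID1, BTG1, BAG2, NRP1, STAB2, C3AR1, SLPI and SPINT1 were named after their values were seen. Also run were a mean filter of 50 and none, other scalings, a pseudocount of 10, background subtraction, the methods' t-test, no mean trend, a replicate block and leaving out each sample. The fit was tested on simulated data. Some named genes are not reported here.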

Additional observations from a re-analysis of the deposited data

How the results depend on the processing

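CLU was lower at low density under every setting run. Its log2 difference was -1.97 with samples scaled to totals with CLU, -1.92 on the positive controls, -2.13 by median of ratios, -1.77 after quantile normalization and -1.85 in unscaled counts, and -2.10 to -2.04 with each sample left out. With the reference genes out of the total its share was 9.72% at high density. The total without CLU differed by 11.4% on the positive controls and -3.74% by median of ratios, and by -0.254% to 1.75% with each sample left out, the negative value being that without low density replicate 3, so its sign is not settled. With CLU in it, the total differed by 3.40% on the positive controls, -10.7% by median of ratios and -7.41% to -5.58% with each sample left out. The cause was not tested.

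The counts of called genes stayed within 1.5 times of those given: with each sample left out, 293 to 316 as deposited, 315 to 327 with CLU in the totals and 298 to 319 without. As deposited, the methods' t-test called 264 of the 480 genes, 157 of them higher at low density. Limma with no mean trend called 286. The positive controls moved the median log2 difference of all genes by 0.15 (240 higher and 76 lower, 75.9% higher). Deviations from the group means correlated by 0.12, -0.11 and -0.03 between samples of equal replicate number, and by up to 0.13 between samples of unequal number. With so few samples, this does not settle whether the numbers pair the samples. With the replicate numbers as a block, 320, 340 and 330 genes passed as deposited, with CLU and without CLU. The difference of CLU was again -2.07, since a balanced block cannot change it. Of 908 values of the 48 named genes under other settings, 35 lost and 16 gained a call. In 14 the direction turned: by median of ratios ALDOA (-0.026), ENO1 (-0.017), APOE (-0.021), CASP8 (-0.017) and NCL (-0.017); by quantile RPS27A (0.35), NCL (-0.041) and CASP8 (-6e-05); on the positive controls LDHA (0.018), AKT2 (0.11) and ITGB1 (0.14); with CLU in the totals AKT2 (0.066) and ITGB1 (0.090); and with each sample left out ITGB1, which ranged between -0.034 and 0.0058, the last without high density replicate 1.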
